A study of Mus musculus with 6 samples.

Results

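Chromatin remodelers, Polycomb group proteins and histone modifiers were followed in surface ectoderm (SE), the outer layer that forms the epidermis, and neural ectoderm (NE), the layer that folds into the neural tube. The genes were chosen by symbol in the array's probe annotation: the Smarc, Arid, Chd, Hdac, Sirt, Kdm, Setd, Cbx, Pcgf, Phc and Ezh families with Eed, Suz12, Bmi1, Ring1 and Rnf2. The rule used no measured value, although it was set with earlier results of these data known. It took 217 of 45281 probes and 96 of 19057 named genes, 1 of them the pseudogene Smarca5-ps. Of these, 154 probes and 93 genes were detected on at least 3 of the 6 arrays and could be tested, and 86 genes had a probe detected on all 6 arrays. Kdm4d and Arid5a were detected on no array and Arid3c on 1 NE array, so those 3 genes were not tested.

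Tissue was dissected at the forebrain level of wild-type CD-1 mouse embryos after enzyme treatment, at embryonic day 8.5 by the labels and over a range that begins slightly earlier by the study's methods, and RNA from pooled SE or pooled NE was hybridized to single-colour Illumina MouseWG-6 v2 arrays. There were 3 SE arrays and 3 NE arrays, with 1 pool of embryos per array, and the dissection was meant to leave out cephalic mesenchyme. The study asked which signals and transcription factors separate the SE fate from the NE fate during neurulation. In a heat map that accompanies the study, the patterns of NE replicates 2 and 3 appear exchanged relative to the labels, which touches no comparison of all SE with all NE arrays. Values are log2 signals after background correction and quantile normalization, differences are SE minus NE, and a gene was called at a Benjamini-Hochberg adjusted p under 0.05 from limma over all tested probes. A gene with several tested probes is represented by the one with the highest mean, and because only 3 pools were measured per tissue the p-values cover only the spread among those pools. In such bulk RNA, fewer cells of a type and less RNA per cell cannot be told apart.

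DNA in the nucleus is wound around histones, and the genes studied here set how open that packaging is. ATP-dependent remodelers of the SWI/SNF, ISWI and CHD families slide or evict nucleosomes, and Polycomb repressive complex 2 (PRC2) methylates histone H3 on lysine 27, a mark that Polycomb repressive complex 1 (PRC1) can bind. Deacetylases (Hdac and sirtuin proteins), demethylases (most Kdm proteins) and SET-domain methyltransferases (Setd proteins) remove or add the marks themselves, and several of them are known to be needed for normal neural or epidermal development.

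Between 18916 and 19068 probes were detected on the SE arrays and between 19174 and 19402 on the NE arrays. All 12 tested SE markers were higher in SE and all 10 tested NE markers were lower in SE. All 8 tested cephalic mesenchyme markers were also higher in SE. The summed linear signal of the 13 mesenchyme markers on the array was 2712 to 3508 on the SE arrays, against 530.1 to 693.8 on the NE arrays, and 9 of the 13 were detected in SE, against 5 in NE, where Alx4, Dcn and Alx1 were not detected on any array. Of 5 tested blood and endothelium markers, 4 were higher in SE, with summed signals over 10 markers of 4381 to 8044 on the SE arrays and 900.9 to 2405 on the NE arrays. Of 5 tested neural crest markers, 4 were higher and 1 lower in SE. Endoderm and notochord markers were mainly lower in SE, 3 of the 4 tested, and 1 was higher. Their summed signals over 8 markers were 454.9 to 472.0 on the SE arrays and 568.0 to 797.5 on the NE arrays. Proliferation genes gave 0 higher and 7 lower in SE of 19 tested, with a median log2 difference of -0.17. The part of these other cells or of cycling in the differences described next was not tested.

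More chromatin genes were lower than higher in SE. Of the 93 tested, 35 were lower in SE and 9 were higher, and 49 did not pass. The lower share was 37.6%, where 21.6% of all 10603 genes tested were lower in SE, and the higher share was 9.68%, where 18.7% of all genes were higher. The median log2 difference of the members was -0.20, against -0.02 over all genes. Members were also brighter than the typical gene, with a median log2 signal of 8.29 against 7.64, and the part of signal level in the lower median was not tested. The median absolute log2 difference was 0.27 for the members and 0.23 for all genes. Only 4 members were called with at least a 2-fold difference, which is 4.30% of the 93, where 8.97% of all genes tested were called and differed that much. When arrays were aligned by their medians and not by quantiles (median centring), 4 members were higher and 41 lower in SE, so the share of higher genes among those called was 8.89% instead of 20.5%. Over all genes the same setting gave 14.4% higher and 26.1% lower in SE, and a share of higher genes among those called of 35.6% instead of 46.5%.

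**Figure D1:**
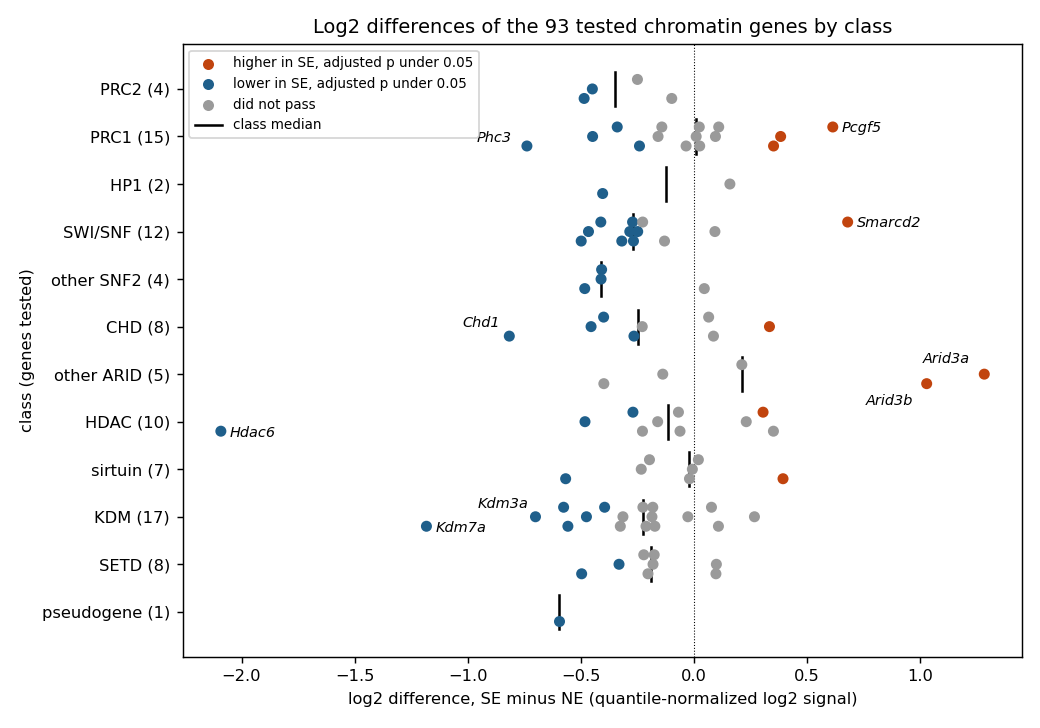
Each point is 1 of the 93 tested genes, placed by its log2 difference of SE minus NE (horizontal axis) within its class (vertical axis), with the class median as a black bar. Most called points lie left of 0, and the 4 genes beyond 2-fold are Hdac6 and Kdm7a on the left and Arid3a and Arid3b on the right.

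Leaving out single arrays removed many of the smaller calls but turned no call round. Without SE replicate 3 or NE replicate 3 the number of genes lower in SE was 21 each, without NE replicate 2 it was 23, and without SE replicate 1, NE replicate 1 or SE replicate 2 it was 24, 25 and 27. The number higher in SE was 5 without NE replicate 3, 6 without SE replicate 1, SE replicate 3 or NE replicate 1, and 8 without SE replicate 2 or NE replicate 2. Shares over all genes fell in the same fits. Between 16.8% and 18.7% of all genes were lower in SE, where the members ran between 22.8% and 29.0%. Between 14.2% and 17.5% of all genes were higher, where the members ran between 5.49% and 8.79%. Of the 44 called genes, 23 kept their call whichever array was left out, 5 of them higher and 18 lower in SE. A smaller set of 18 kept it under all 15 alternative settings. Arid3a, Arid3b, Smarcd2 and Pcgf5 were the 4 higher in SE. The 14 lower in SE were Hdac6, Kdm7a, Kdm3a, Smarca5-ps, Kdm2a, Sirt3, Suz12, Smarca1, Hdac5, Ezh2, Smarcad1, Cbx5, Kdm4b and Setd2.

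**Figure D2:**
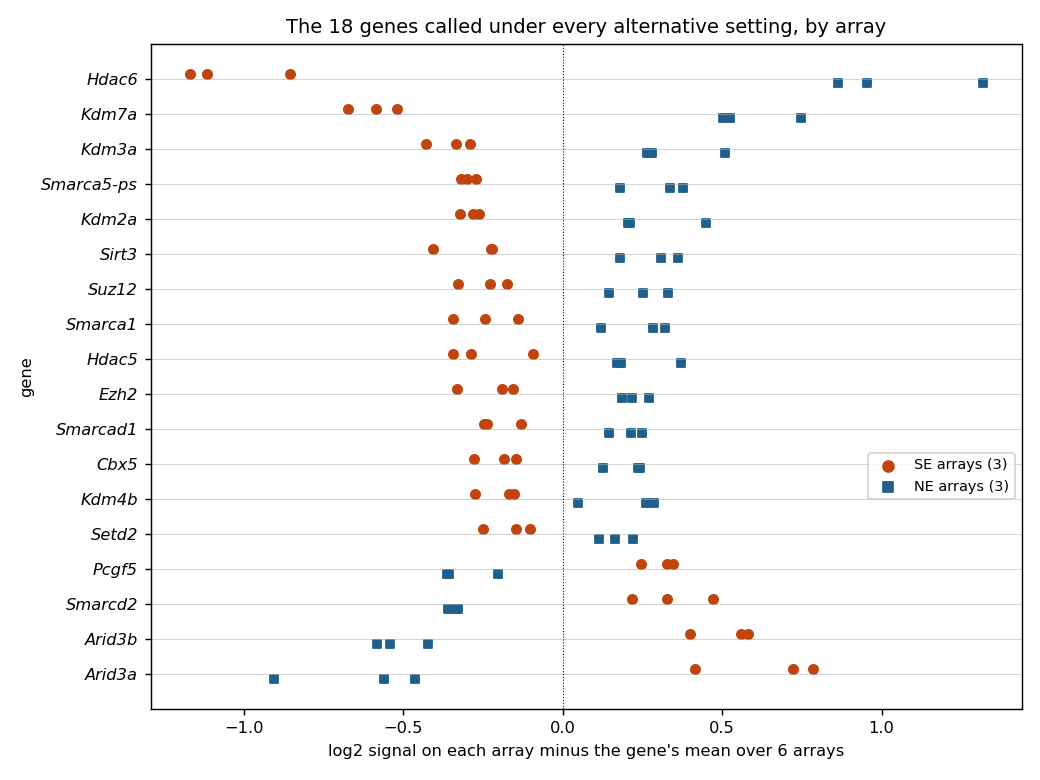
The log2 signal on each array minus the gene's mean over the 6 arrays (horizontal axis) is drawn for the 18 genes called under every setting (vertical axis), with SE arrays as circles above NE arrays as squares. The genes were chosen by their calls on these same arrays, so separate SE and NE arrays follow largely from that choice and are no further result. The widest gap is that of Hdac6.

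**Figure D3:**
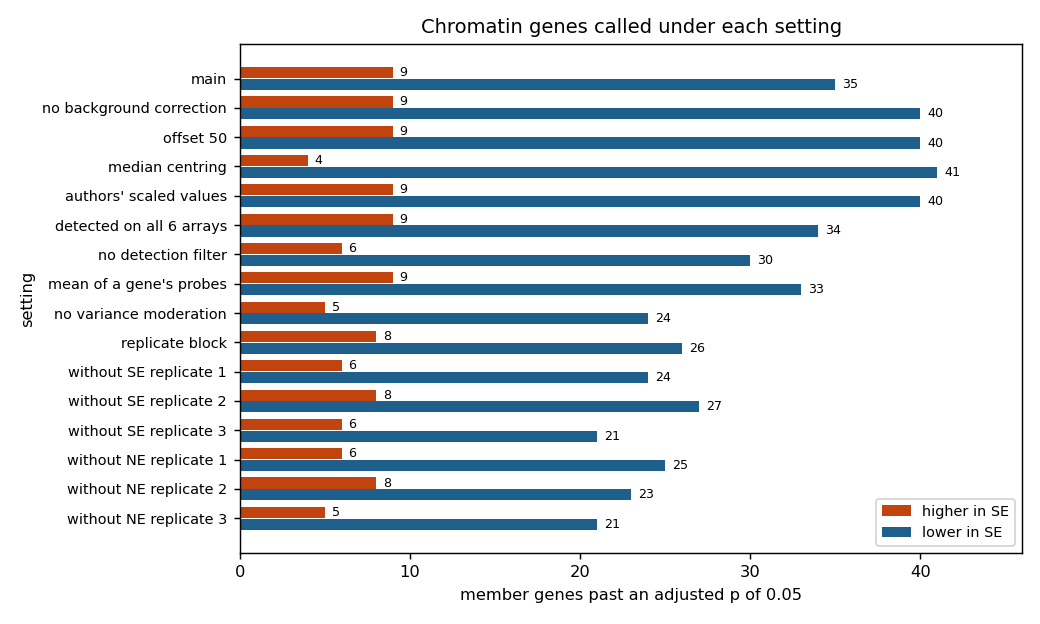
The bars give the number of chromatin genes called higher and lower in SE (horizontal axis) under the main setting and 15 alternatives (vertical axis). The number lower in SE runs between 21 and 41 and the number higher in SE between 4 and 9.

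Hdac6 showed the largest difference of all members. It encodes a mainly cytoplasmic deacetylase whose best known substrate is tubulin. Its only probe read 7.18, 7.12 and 7.44 on the SE arrays, against 9.16, 9.25 and 9.61 on the NE arrays. Every SE array lay far below every NE array, a 4.26-fold lower signal in SE (log2 difference -2.09, standard error 0.14, adjusted p = 2.13e-05 from limma). Kdm7a, a JmjC demethylase that acts on methylated lysines 9 and 27 of histone H3, read 8.55, 8.62 and 8.46 on the SE arrays, against 9.64, 9.66 and 9.88 on the NE arrays. The tissues were again apart, 2.27-fold lower in SE (log2 difference -1.18, standard error 0.09, adjusted p = 5.49e-05). Those values are of its brightest probe. A dimmer Kdm7a probe was lower in SE by less, at -0.41 (adjusted p = 0.038). With its probes averaged the log2 difference was -0.80 (adjusted p = 0.000335), which is less than 2-fold.

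Higher in SE beyond 2-fold were Arid3a and Arid3b, DNA-binding proteins with an AT-rich interaction domain that are not subunits of SWI/SNF. Arid3a read 9.54, 9.84 and 9.91 on the SE arrays, against 8.56, 8.22 and 8.66 on the NE arrays. No SE array came within the NE range, and the signal was 2.43-fold higher in SE (log2 difference 1.28, standard error 0.14, adjusted p = 0.000351). Arid3b, which can bind DNA together with Arid3a, read 10.81, 10.996 and 10.97 on the SE arrays, against 9.87, 9.83 and 9.99 on the NE arrays. It was 2.04-fold higher in SE with little spread in either tissue (log2 difference 1.03, standard error 0.09, adjusted p = 7.49e-05). Within the class of other ARID proteins these 2 were called and 3 were not: Arid4b at -0.40 (adjusted p = 0.0717), Arid5b at 0.21 (adjusted p = 0.322) and Arid4a at -0.14 on the log2 scale.

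The 250 bases upstream of listed RefSeq starts are shown for Hdac6, Kdm7a and Arid3b. These are the members with a RefSeq window among those beyond 2-fold, which carry the largest differences. Windows are from GRCm38.p6, each on the minus strand and written 5′ to 3′. Capitals mark matches on either strand to GCCNNNGGC, the palindromic core bound by AP-2 factors, which were searched for because AP-2 genes mark SE. The first window is Hdac6 at chrX:7947890-7948139, the second Kdm7a at chr6:39206774-39207023, and the last windows belong to a pair of Arid3b starts at chr9:57836780-57837029 and chr9:57836485-57836734. The annotated gene spans reach up to base 7948047 for Hdac6 and 57836847 for Arid3b. So the Hdac6 window and the first Arid3b window overlap the gene in part, and the second Arid3b window lies inside it.
Hdac6: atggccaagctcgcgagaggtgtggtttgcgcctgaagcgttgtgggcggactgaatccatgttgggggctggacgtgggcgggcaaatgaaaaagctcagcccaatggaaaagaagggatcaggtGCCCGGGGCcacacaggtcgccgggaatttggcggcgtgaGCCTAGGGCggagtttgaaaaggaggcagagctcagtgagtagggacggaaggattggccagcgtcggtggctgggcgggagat
Kdm7a: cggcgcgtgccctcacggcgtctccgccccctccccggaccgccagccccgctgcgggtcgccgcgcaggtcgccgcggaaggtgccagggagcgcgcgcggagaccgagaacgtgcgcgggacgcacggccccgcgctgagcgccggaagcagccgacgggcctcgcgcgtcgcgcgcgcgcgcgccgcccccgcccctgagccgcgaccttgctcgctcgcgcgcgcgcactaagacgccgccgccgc
Arid3b, start 1: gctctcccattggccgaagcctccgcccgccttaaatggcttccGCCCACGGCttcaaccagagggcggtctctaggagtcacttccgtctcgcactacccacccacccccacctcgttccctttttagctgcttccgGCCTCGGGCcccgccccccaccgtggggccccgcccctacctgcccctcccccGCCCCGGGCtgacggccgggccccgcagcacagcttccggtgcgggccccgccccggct
Arid3b, start 2: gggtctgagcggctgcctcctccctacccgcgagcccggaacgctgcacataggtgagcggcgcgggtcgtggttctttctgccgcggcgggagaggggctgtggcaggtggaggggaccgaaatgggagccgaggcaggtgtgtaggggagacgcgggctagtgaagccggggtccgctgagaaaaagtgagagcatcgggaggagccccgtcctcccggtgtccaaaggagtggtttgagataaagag
Hdac6 held 2 AP-2 matches, Kdm7a 0, and the Arid3b windows 3 and 0. The motif was found in 13.7% of all 32851 promoter windows of this length. AACNGGTT, a core letter pattern of Grainyhead-like factors, was found in 1.79% of all windows and in none of these 4, and the E-box CACGTG in 6.02% and in none of these 4. CpG pairs numbered 17 in Hdac6, 56 in Kdm7a, and 23 and 21 in the Arid3b windows, where the median window held 6 and the 90th percentile was 25. A match describes the letters only, and it appeared both in a gene lower in SE and in a gene higher in SE.

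PRC2 was lower in SE at 2 of its 4 tested genes and higher at none, where 21.6% of all genes were lower and 18.7% higher. Suz12, the scaffold that holds the complex together, read 10.75, 10.80 and 10.65 on the SE arrays, against 11.23, 11.12 and 11.31 on the NE arrays. Ezh2, the methyltransferase of dividing cells, read 11.24, 11.27 and 11.10 on the SE arrays, against 11.70, 11.62 and 11.65 on the NE arrays. Both lay below the NE range on every SE array, with log2 differences of -0.49 for Suz12 (standard error 0.08, adjusted p = 0.0032) and -0.45 for Ezh2 (standard error 0.08, adjusted p = 0.00351). The other tested Ezh2 probe gave a log2 difference of -0.51 (adjusted p = 0.0105). Eed, the subunit that binds the methyl mark, read 8.09, 8.38 and 8.35 on the SE arrays, against 8.59, 8.49 and 8.49 on the NE arrays. Its arrays did not overlap either, but the difference of -0.25 did not pass (adjusted p = 0.0804), whereas a dimmer Eed probe passed at -0.61 (adjusted p = 0.00176). Ezh1, the methyltransferase that predominates in resting cells, overlapped between tissues near the detection limit at -0.10 (adjusted p = 0.551). Of 5 tested partners of PRC2 outside the families chosen, 2 were higher and 1 lower in SE. Phf19, which binds methylated lysine 36 of histone H3, was higher in SE by 0.68 on the log2 scale (adjusted p = 0.00953), as was Rbbp7, a histone-binding subunit shared with other complexes, by 0.48 (adjusted p = 0.00613), while Aebp2, an accessory DNA-binding subunit, was lower at -0.26 (adjusted p = 0.0307). Phf19 was dim and was detected on 2 of 3 NE arrays.

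Of 15 tested PRC1 genes, 3 were higher in SE and 4 lower, where 18.7% of all genes were higher and 21.6% lower, so the higher share was close to that of all genes and the lower share, 26.7%, not far above it. Pcgf5, a ring-finger subunit of a variant PRC1, read 8.66, 8.56 and 8.64 on the SE arrays, against 8.11, 7.96 and 7.95 on the NE arrays. It was clearly separate and 1.53-fold higher in SE (log2 difference 0.61, standard error 0.08, adjusted p = 0.000789). Bmi1, the Pcgf subunit known for stem cell self-renewal, read 7.13, 7.25 and 6.95 on the SE arrays, against 6.88, 6.75 and 6.56 on the NE arrays. Its arrays were separate but close (log2 difference 0.38, adjusted p = 0.0318). The chromodomain subunit Cbx7 was higher in SE at 0.35 (adjusted p = 0.0374). With median centring Bmi1 and Cbx7 no longer passed and Pcgf5 was the only PRC1 gene higher in SE.

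On the lower side of PRC1 stood Phc3, a polyhomeotic subunit, which read 4.71, 4.99 and 5.16 on the SE arrays, against 5.66, 5.56 and 5.86 on the NE arrays. Although dim, its arrays did not overlap (log2 difference -0.74, standard error 0.13, adjusted p = 0.00383). Cbx8 (-0.45, adjusted p = 0.0474), Cbx6 (-0.34, adjusted p = 0.0236) and Phc1 (-0.24, adjusted p = 0.0394) were lower in SE by less. The catalytic ring-finger genes gave no call, with Ring1 at -0.14 (adjusted p = 0.292) and Rnf2 at 0.0092 (adjusted p = 0.978), nor did Pcgf2 at 0.02 (adjusted p = 0.864). Several of these calls did not hold when single arrays were left out. Cbx8 lost its call whichever of the 6 arrays was left out (adjusted p up to 0.135, without NE replicate 2), and Phc1 kept its call only without NE replicate 2 (otherwise up to 0.102, without NE replicate 1). Cbx6 was lost without each SE replicate and NE replicate 3 (up to 0.0687, without SE replicate 3). Cbx7 was lost without SE replicates 2 and 3 and NE replicates 1 and 3 (up to 0.110, without SE replicate 3). Bmi1 was lost without SE replicates 1 and 2 and NE replicates 2 and 3 (up to 0.0987, without SE replicate 2). Of 17 tested partners of PRC1 and the PR-DUB deubiquitinase, 1 was higher and 2 were lower in SE. The shares were 5.88% and 11.8%, beside 18.7% and 21.6% of all genes. These were Auts2, a subunit found with Pcgf5, at 0.40 (adjusted p = 0.00965), Asxl2, a PR-DUB subunit, at -0.75 (adjusted p = 0.000519) and Bcor, a corepressor of a variant PRC1, at -0.31 (adjusted p = 0.02). Asxl2 was dim and was detected on 2 of 3 SE arrays.

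The tested HP1 proteins, which bind methylated lysine 9 of histone H3, were Cbx5 and Cbx3. Cbx5 read 10.54, 10.40 and 10.50 on the SE arrays, against 10.92, 10.92 and 10.81 on the NE arrays. It was lower in SE with no overlap (log2 difference -0.40, standard error 0.08, adjusted p = 0.00531). Cbx3 stood at 0.16 and did not pass (adjusted p = 0.227).

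SWI/SNF held 8 of 12 tested genes lower in SE and 1 higher, with a median log2 difference of -0.27. The shares were 66.7% and 8.33%, beside 21.6% and 18.7% of all genes. The 8 count Smarce1 by its brightest probe, although its other bright probe was higher in SE, and 7 are lower without it. With a gene's probes averaged, Smarca2 and Arid1b did not pass either, and 5 SWI/SNF genes were lower in SE. The gene higher in SE, Smarcd2, encodes 1 of 3 alternative BAF60 subunits of the complex, and the other 2 were lower in SE. Smarcd2 read 10.30, 10.56 and 10.41 on the SE arrays, against 9.75, 9.73 and 9.76 on the NE arrays. The NE arrays were nearly equal and all SE arrays lay above them (log2 difference 0.68, standard error 0.09, adjusted p = 0.000649). Smarcd1, a form found in the complex of embryonic stem cells, read 5.36, 5.64 and 5.29 on the SE arrays, against 5.81, 5.82 and 6.06 on the NE arrays. Smarcd3, the form known for its role in heart development, read 5.38, 4.73 and 5.11 on the SE arrays, against 5.71, 5.44 and 5.57 on the NE arrays. Both were dim and lower in SE without overlap, at -0.47 for Smarcd1 (adjusted p = 0.0171) and -0.50 for Smarcd3 (adjusted p = 0.0441), and a second Smarcd1 probe passed at -0.43 (adjusted p = 0.0263).

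Among the ATPases and common subunits of SWI/SNF the differences were smaller. Smarca4, the ATPase Brg1, read 7.998, 8.10 and 7.91 on the SE arrays, against 8.26, 8.27 and 8.32 on the NE arrays. Smarca2, the alternative ATPase Brm, read 10.38, 10.36 and 10.43 on the SE arrays, against 10.62, 10.68 and 10.62 on the NE arrays. The SE arrays of both ATPases lay below all NE arrays, at -0.28 for Smarca4 (adjusted p = 0.025) and -0.25 for Smarca2 (adjusted p = 0.0266). The scaffold subunits Smarcc2 (-0.41, adjusted p = 0.0251) and Smarcc1 (-0.27, adjusted p = 0.0446) and the DNA-binding subunit Arid1b (-0.32, adjusted p = 0.0326) were lower too. Smarce1, another DNA-binding subunit, had no single direction, since its brightest probe was lower in SE (-0.27, adjusted p = 0.0268) and its other bright probe higher (0.27, adjusted p = 0.0323). Arid1a (-0.23, adjusted p = 0.0778), Arid2 (-0.13, adjusted p = 0.443) and the core subunit Smarcb1 (0.09, adjusted p = 0.512) did not pass. Of 14 tested partner subunits, 1 was higher and 2 were lower in SE, shares of 7.14% and 14.3% beside 18.7% and 21.6% of all genes. These were Bcl7c at 0.41 (adjusted p = 0.00419), Bicral at -0.37 (adjusted p = 0.018) and Ss18 at -0.31 (adjusted p = 0.0255).

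The SWI/SNF count was not stable. It was 0 genes lower in SE without NE replicate 3, 1 without SE replicate 1, 2 without SE replicate 2 or NE replicate 2, and 3 without SE replicate 3 or NE replicate 1, and with the replicate number as a block it was 3. Each of the 8 genes lost its call without at least 3 of the single arrays, with adjusted p up to 0.122 (Smarcd3 without NE replicate 1), and Smarcc1 lost it whichever array was left out. In contrast, Smarcd2 was called each time, with a highest adjusted p of 0.00415 when 1 array was left out.

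**Figure D4:**
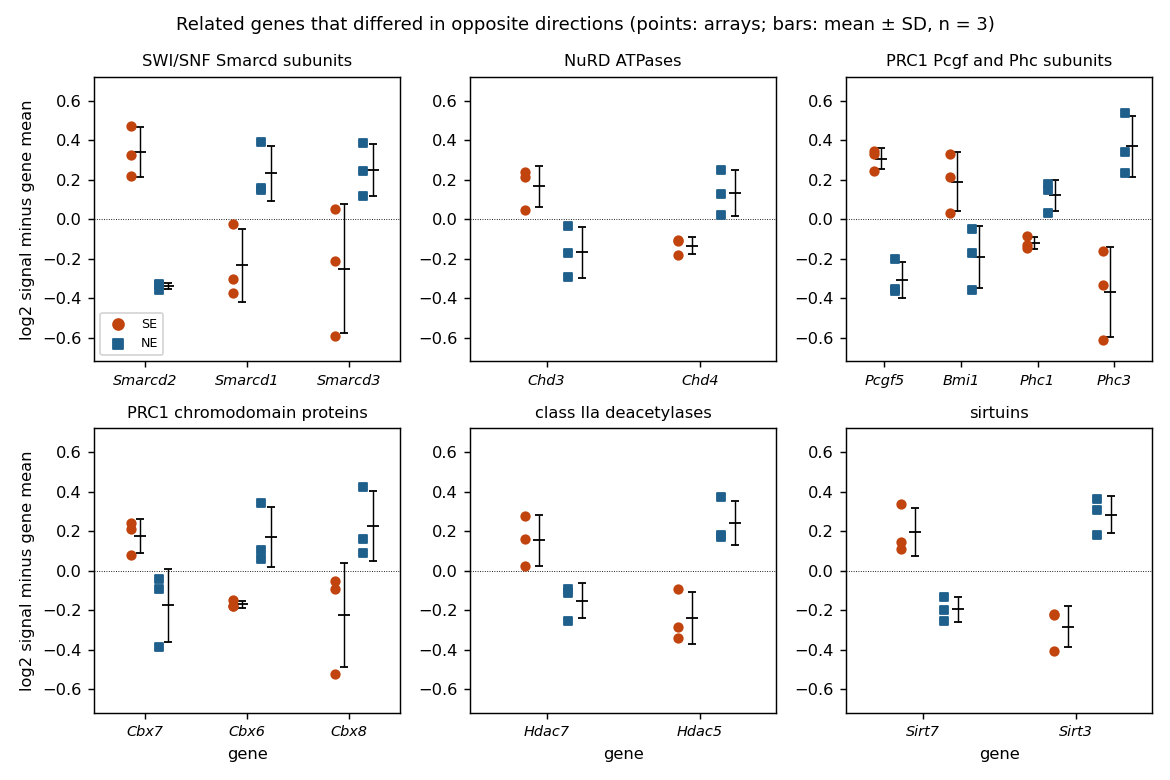
Log2 signals minus each gene's mean (vertical axis) are drawn for related genes (horizontal axis) in 6 panels, with SE arrays as circles left of NE arrays as squares and bars for the mean ± SD of 3 arrays. The genes are called ones chosen after their values were seen, for their opposite directions, and related genes that did not pass are left out. So by choice each panel has at least 1 gene with its SE arrays above its NE arrays, as Smarcd2 and Pcgf5 do. At least 1 other has them below, as Smarcd1 and Phc3 do.

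Of the remaining SNF2 ATPases, 3 of 4 tested were lower in SE and 0 higher, where 21.6% of all genes were lower and 18.7% higher. The 3 include Smarca5, whose probe met the detection minimum only through the NE arrays. Smarca1, an ISWI ATPase with a role in neural progenitors, read 9.30, 9.19 and 9.09 on the SE arrays, against 9.72, 9.56 and 9.76 on the NE arrays. Smarcad1, which helps to keep heterochromatin through replication, read 9.71, 9.59 and 9.60 on the SE arrays, against 10.05, 9.98 and 10.09 on the NE arrays. Neither overlapped between tissues, with log2 differences of -0.48 for Smarca1 (adjusted p = 0.00468) and -0.41 for Smarcad1 (adjusted p = 0.00434). Smarca5, the other ISWI ATPase, was not detected on any SE array and was detected on all 3 NE arrays, at least 1.24-fold lower in SE (adjusted p = 0.0246). That call was lost without SE replicate 1 (adjusted p = 0.0502) or SE replicate 3 (0.0827), and with any NE array left out its probe missed the detection minimum and was not tested. The Smarca5 call was also lost with the authors' scaled values. Since the probe was tested only through the NE arrays, the detection filter itself favoured a lower value in SE. A probe annotated to its pseudogene Smarca5-ps read 9.50, 9.55 and 9.52 on the SE arrays, against 10.16, 9.999 and 10.20 on the NE arrays. The difference there was -0.60 (standard error 0.08, adjusted p = 0.000924), and whether such a probe reads Smarca5 transcripts as well was not tested. Smarcal1, a DNA-annealing helicase, was at 0.05 (adjusted p = 0.76). Of 21 tested partners in the ISWI, INO80 and SRCAP complexes, 0 were higher and 5 lower in SE, a lower share of 23.8% near the 21.6% of all genes. The largest were Baz1b, a partner of Smarca5, at -0.48 (adjusted p = 0.038), Ttf2, a SNF2 protein of transcription termination, at -0.44 (adjusted p = 0.00287) and Ep400, an ATPase of the INO80 group, at -0.37 (adjusted p = 0.0272). Baz1b lay near the detection limit and was detected on 1 of 3 SE arrays and on all 3 NE arrays.

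Among CHD remodelers 4 of 8 tested were lower in SE and 1 was higher, where 21.6% of all genes were lower and 18.7% higher. With a gene's probes averaged, 3 CHD genes were lower in SE, and Chd6 and Chd9 were not among them. Chd1, which binds the methylated lysine 4 of histone H3 at active genes, read 10.23, 9.57 and 10.12 on the SE arrays, against 10.78, 10.73 and 10.85 on the NE arrays. Despite a wide spread in SE the arrays did not overlap (log2 difference -0.82, standard error 0.17, adjusted p = 0.0065). A second bright Chd1 probe passed at -0.78 (adjusted p = 0.00657), and its 2 dimmer probes did not pass, at -0.21 (adjusted p = 0.186) and -0.06 (adjusted p = 0.688). Chd6 (-0.46, adjusted p = 0.00288) and Chd9 (-0.40, adjusted p = 0.0109) were lower in SE as well. Chd8, a remodeler linked to autism in humans, fell just short at -0.23 (adjusted p = 0.0508).

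Chd3, Chd4 and Chd5 are alternative ATPases of the NuRD complex. Chd3 read 6.56, 6.40 and 6.59 on the SE arrays, against 6.06, 6.32 and 6.18 on the NE arrays. Chd4 read 10.61, 10.68 and 10.69 on the SE arrays, against 10.81, 11.04 and 10.92 on the NE arrays. Neither overlapped between tissues, yet the differences were small, at 0.33 for Chd3 (adjusted p = 0.0294) and -0.27 for Chd4 (adjusted p = 0.0418). Chd5 was not called at 0.06 (adjusted p = 0.691). Without SE replicate 1, SE replicate 3, NE replicate 1 or NE replicate 3 the Chd3 call was lost (adjusted p up to 0.0917, without SE replicate 3), and it was also lost with median centring. Chd4 kept its call only without NE replicate 1 (otherwise adjusted p up to 0.122, without NE replicate 2), although 2 dimmer Chd4 probes passed at -0.47 (adjusted p = 0.00423) and -0.46 (adjusted p = 0.0205). Of 26 tested partners in the NuRD, Sin3 and CoREST corepressors, 3 were higher and 9 lower in SE. The shares were 11.5% and 34.6%, beside 18.7% and 21.6% of all genes. Mta3, a NuRD subunit that represses Snai1 in human breast cells, was higher in SE by 1.22 (adjusted p = 1.42e-05), while the NuRD subunits Gatad2b (-0.82, adjusted p = 0.00226) and Mbd2 (-0.76, adjusted p = 0.00486) were lower.

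Of 10 tested deacetylases, 3 were lower in SE and 1 was higher, where 21.6% of all genes were lower and 18.7% higher. Beside Hdac6 stood Hdac5, a signal-dependent class IIa enzyme, which read 8.78, 8.73 and 8.98 on the SE arrays, against 9.25, 9.24 and 9.44 on the NE arrays. All 3 of its probes were lower in SE, between -0.62 and -0.48 on the log2 scale (adjusted p = 0.00692 for the brightest). Hdac7, of the same class IIa, read 7.68, 7.43 and 7.57 on the SE arrays, against 7.31, 7.15 and 7.29 on the NE arrays. It was higher in SE by 0.30 (adjusted p = 0.0362), a call lost with median centring and, among single arrays, kept only without SE replicate 2 (otherwise adjusted p up to 0.110, without SE replicate 1). Hdac3, the enzyme of the NCoR corepressor, was lower in SE (log2 difference -0.27, adjusted p = 0.0485), a call kept only without SE replicate 1 (otherwise adjusted p up to 0.124, without NE replicate 3). Hdac2, a bright class I enzyme, read 12.02, 12.01 and 12.04 on the SE arrays, against 12.03, 12.14 and 12.11 on the NE arrays. Its tissues overlapped (log2 difference -0.07, adjusted p = 0.488). Hdac11 was at 0.35 and did not pass (adjusted p = 0.0964).

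Sirtuins, which use NAD as a cofactor, gave 1 gene higher and 1 lower in SE of 7 tested. Each share was 14.3%, below the 18.7% higher and 21.6% lower of all genes. Sirt3, a mitochondrial deacetylase, read 7.75, 7.94 and 7.93 on the SE arrays, against 8.34, 8.46 and 8.52 on the NE arrays. Sirt7, a nucleolar deacetylase, read 10.20, 9.98 and 10.01 on the SE arrays, against 9.61, 9.74 and 9.67 on the NE arrays. The tissues were separate for each gene, at -0.57 for Sirt3 (adjusted p = 0.00201) and 0.39 for Sirt7 (adjusted p = 0.0105), and with median centring Sirt7 no longer passed (adjusted p = 0.0558). Sirt1 (-0.20, adjusted p = 0.131) and Sirt5 (-0.23, adjusted p = 0.153) did not pass.

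Demethylases gave 6 genes lower in SE and 0 higher of 17 tested, a lower share of 35.3% where 21.6% of all genes were lower and 18.7% higher. After Kdm7a the largest was Kdm3a, which removes methyl groups from lysine 9 of histone H3 and read 9.57, 9.52 and 9.43 on the SE arrays, against 10.12, 10.13 and 10.36 on the NE arrays. Kdm2a, which acts on lysine 36 and binds unmethylated CpG islands, read 8.66, 8.68 and 8.62 on the SE arrays, against 9.15, 9.14 and 9.39 on the NE arrays. Both were separate between tissues and 1.63-fold and 1.49-fold lower in SE (log2 difference -0.70 for Kdm3a, adjusted p = 0.000836, and -0.58 for Kdm2a, adjusted p = 0.00188). Lower too were Kdm5c, an X-linked demethylase of lysine 4 (-0.56, adjusted p = 0.021), and the lysine 9 and 36 demethylases Kdm4c (-0.48, adjusted p = 0.0203) and Kdm4b (-0.40, adjusted p = 0.0116). Kdm5c lost its call without SE replicates 1 and 3 and NE replicates 1 and 2 (adjusted p up to 0.0765, without SE replicate 3), and Kdm4c lost it without SE replicates 2 and 3 and NE replicate 2 (up to 0.0692, without SE replicate 2).

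The lysine 27 demethylases, which oppose PRC2, were Kdm6a and Kdm6b. Kdm6a read 9.71, 9.71 and 9.63 on the SE arrays, against 9.90, 9.78 and 10.04 on the NE arrays. Its brightest probe did not pass (log2 difference -0.23, adjusted p = 0.0823), while the other 2 probes did, at -0.34 (adjusted p = 0.0413) and -0.58 (adjusted p = 0.0308). Kdm6b read 8.07, 8.26 and 8.22 on the SE arrays, against 7.75, 8.14 and 7.86 on the NE arrays. Here the tissues overlapped and the difference did not pass (0.27, adjusted p = 0.11). Kdm1a, the flavin-dependent demethylase of lysine 4, was at -0.18 and did not pass (adjusted p = 0.112).

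The SETD methyltransferases gave 2 genes lower in SE and 0 higher of 8 tested, a lower share of 25.0% near the 21.6% of all genes. Setd1b, a lysine 4 methyltransferase, read 8.80, 9.02 and 8.66 on the SE arrays, against 9.24, 9.19 and 9.54 on the NE arrays. Setd2, which places trimethylation on lysine 36 behind elongating polymerase, read 9.80, 9.84 and 9.70 on the SE arrays, against 10.11, 10.06 and 10.17 on the NE arrays. Neither overlapped, with log2 differences of -0.50 for Setd1b (adjusted p = 0.0187) and -0.33 for Setd2 (adjusted p = 0.0122). All 3 Setd2 probes were lower in SE, between -0.50 and -0.33, whereas Setd1b lost its call without SE replicate 1 (adjusted p = 0.0532) or SE replicate 3 (adjusted p = 0.0661). Setd4 (-0.22, adjusted p = 0.317) and Setd6 (-0.20, adjusted p = 0.0619) did not pass at their brightest probes. The other Setd6 probe passed at -0.29 (adjusted p = 0.0257). The other Setd4 probe had the opposite sign and did not pass (0.22, adjusted p = 0.101).

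Counted by probe, 54 of the 154 tested were lower in SE and 11 were higher, where 20.2% of all 19590 probes tested were lower and 17.1% higher. Of 40 genes with several tested probes, 18 had probes that differed in their calls, 4 had all probes called the same way and 18 had none called. Probes were called in both directions for 2 genes. Smarce1 was lower in SE at its brightest probe (-0.27) and higher at the other (0.27, adjusted p = 0.0323), both bright. Kdm2b, a CpG-binding subunit of a variant PRC1, was not called at its brightest probe (-0.21, adjusted p = 0.0987), lower in SE at a dim probe (-0.73, adjusted p = 0.00122) and higher at another (0.37, adjusted p = 0.0307). Which transcripts each probe reads was not tested, so no single direction can be given for Smarce1 or Kdm2b. Chd6 (0.14, adjusted p = 0.340) and Chd9 (0.20, adjusted p = 0.296) each had a dim probe of opposite sign that did not pass, and with a gene's probes averaged both genes lost their call (adjusted p = 0.146 for Chd6 and 0.132 for Chd9). Of the 17 called genes with several tested probes, 7 lost their call in this way, the others being Arid1b (adjusted p = 0.159), Kdm5c (0.144), Phc1 (0.123), Smarca2 (0.715) and Smarce1 (0.996).

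**Figure D5:**
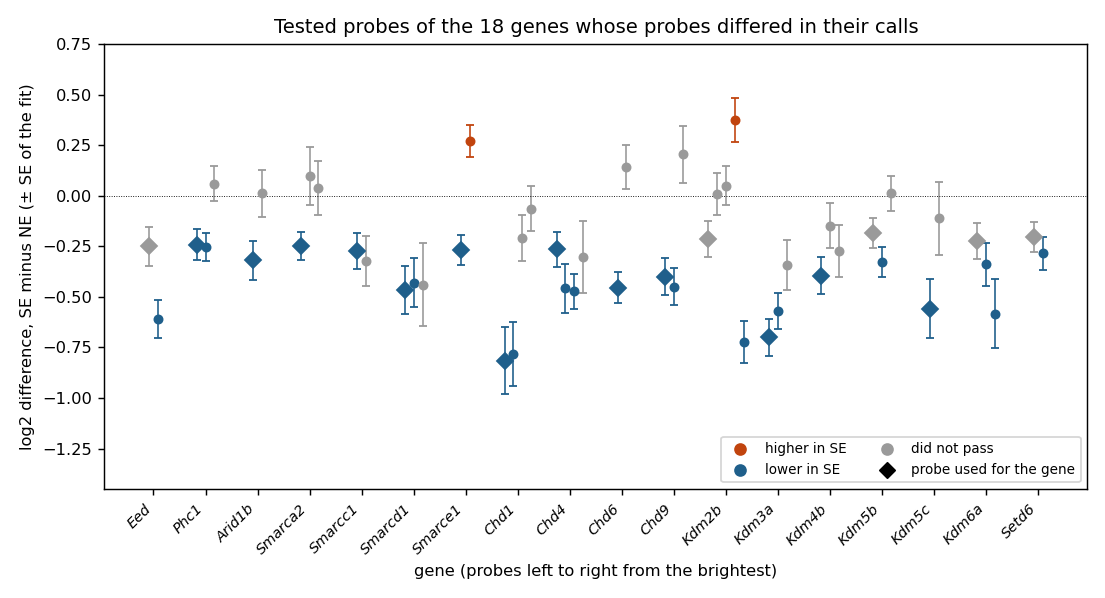
The log2 difference of SE minus NE with its standard error (vertical axis) is drawn for each tested probe of the 18 genes whose probes differed in their calls (horizontal axis), with diamonds for the probe that represents the gene. Smarce1 and Kdm2b have probes called on both sides of 0, and the other genes have called probes only below 0.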

How the data were processed

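RNA from 3 SE and 3 NE pools was measured on 6 single-colour arrays. The deposited table holds, for each probe, a signal intensity on a linear scale, exported by the authors with BeadStudio (version not given in the sources used here) without normalization, together with a detection p-value, also from the authors' export. The authors' scaled intensity values, used as an alternative, were these signals multiplied by 1 constant per array (1.00, 1.01 and 1.07 for SE, 0.993, 0.971 and 0.966 for NE).

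The background was corrected and arrays were quantile normalized with neqc of limma 3.58.1 in R 4.3.3 (offset 16), which gives log2 values. Probes were kept where 3 or more of the 6 arrays had detection p under 0.05, which left 19590, and SE was set against NE with lmFit and eBayes without a block, and p-values were adjusted over all of them. A fold for a gene undetected on every array of 1 tissue is a bound against each array's lowest detected signal. The fit was tested on simulated data. The number of arrays limits the precision.

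Probe names came from the platform annotation, in which 34885 probes have 1 symbol, 18 several and 10378 none. A matching probe with several symbols was left out (1 probe). Promoter windows came from RefSeq (GRCm38.p6). The members and gene lists were chosen with earlier results of these data known. Named were the up to 4 genes with the largest difference in each class, a list of core subunits, called genes undetected in 1 tissue and genes whose probes had opposite signs, and other genes in the text were chosen after their values were seen. For lists outside the families, up to 3 called genes were named. Alternatives were other background corrections, offsets, normalization, filters, probe averaging, ordinary variances, a replicate block and leaving out each array. Figures used Python 3.11.15 and matplotlib 3.10.9.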

Additional observations from a re-analysis of the deposited data

How the results depend on the processing

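Over 15 alternatives, no called member was called in the opposite direction, and 18 of the 44 calls held in every one. The number of genes higher in SE, 9 in the main setting, was 4 with median centring, 5 without variance moderation and 5 to 8 with 1 array left out. The number lower in SE, 35 in the main setting, was 21 to 27 with 1 array left out and 24 without variance moderation, where 21 of them were among the 35. Without variance moderation 15.9% of all genes were higher and 18.1% lower in SE. The study's methods describe 3 replicate experiments and a comparison of SE with NE within each of them. Deviations of same-numbered SE and NE arrays correlated at -0.037, -0.031 and -0.020. With 3 arrays per tissue these values cannot show whether the arrays were paired, and the labels of NE replicates 2 and 3 are uncertain. With the replicate number as a block, 8 genes were higher and 26 lower in SE, where 16.9% of all genes were higher and 18.9% lower. Changes of sign were counted only for the genes named by rule. Among the called ones the sign turned for Smarce1 alone, at its averaged probes (0.000490). Among those that did not pass, it turned with median centring for Pcgf2 (-0.0507), Rnf2 (-0.0280), Smarcal1 (-0.0363) and Smarcb1 (-0.00499). With the authors' scaled values it turned for Ezh1 (0.0133). With 1 array left out the log2 difference ran between -0.0233 and 0.0798 for Pcgf2, -0.113 and 0.165 for Rnf2, -0.0142 and 0.128 for Smarcal1 and -0.194 and 0.0190 for Ezh1. Of all values recomputed for the genes named by rule, 765 kept their direction and side of the threshold, 117 no longer passed, 39 newly passed and 13 turned sign. The cause was not tested.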

Other observations

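Enzymes outside the chosen families were described with the same fit. Of 17 tested histone acetyltransferases and their subunits, 2 were higher and 4 lower in SE, shares of 11.8% and 23.5% beside 18.7% and 21.6% of all genes, with a median log2 difference of -0.14. The paired coactivators Crebbp and Ep300, which acetylate histones at enhancers, were both lower in SE, at -1.09 (adjusted p = 0.000186) and -0.68 (adjusted p = 0.00115) from limma, and Ncoa2, a nuclear receptor coactivator, was lower at -0.44 (adjusted p = 0.00388).

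Of 32 tested histone methyltransferases outside the Ezh and Setd families, 2 were higher and 9 lower in SE, shares of 6.25% and 28.1%, with a median of -0.11. Kmt2a (-0.79, adjusted p = 0.00212) and Kmt2c (-0.71, adjusted p = 0.00289), which methylate lysine 4 of histone H3, and Nsd1 (-0.78, adjusted p = 0.000847), which methylates lysine 36, showed the largest differences. Of 10 tested other JmjC proteins, 2 were higher in SE and 0 lower, a higher share close to the 18.7% of all genes, with a median of 0.091. Hr, the hairless corepressor of skin, was higher in SE by 0.86 (adjusted p = 0.000539), and Jmjd4 by 0.27 (adjusted p = 0.0451).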
